A study of Juglans regia with 21 samples.

Results

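The NAC transcription factors described here are 112 of the 31425 genes in a deposited expression table of the walnut pellicle, the thin seed coat that encloses the kernel. They were taken by product name: the NR or Swiss-Prot description had to contain "NAC domain" or "NAC transcription factor", and proteins of the nascent polypeptide-associated complex, which share the abbreviation, were left out. The rule itself used no measured value, but it was set with earlier results of these data known. Of the 112 members, 103 carry the Pfam NAM domain, the DNA-binding domain of the family, and 9 do not. Another 14 genes with that domain carry other product names and are not counted as members.

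NAC proteins are plant transcription factors that bind DNA through a conserved N-terminal domain named after the genes NAM, ATAF and CUC, and regulate transcription through a variable C-terminal region. In Arabidopsis, members of the family set organ boundaries, switch on secondary wall deposition in vessels and fibres, drive leaf senescence, answer drought and abscisic acid, and act in the integuments, from which the seed coat forms. Some members are held at a membrane by a C-terminal anchor and reach the nucleus once released. Numbers such as NAC72 are used below where the deposited Swiss-Prot match is an Arabidopsis entry (98 members), and each role named is that of the Arabidopsis gene unless another species is given.

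Poly(A) RNA was sequenced from pellicles of field-grown *Juglans regia*, cultivar Xinwen179, in 7 stages of 3 libraries each, 21 in all. The stages, counted in weeks from pollination, were 8, 9, 11, 13, 15, 17 and 19, written 8W to 19W. They differ in age only, as far as the labels say, with no mutant and no treatment, and the study sought genes that accompany pellicle development. Libraries held 13144713 to 17878761 counted reads. Nothing in the labels ties the 3 libraries of a stage to different trees, and the p-values therefore speak only of the spread among the libraries, part of which may be technical.

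The summed NAC transcript level was about 4 times as high at the last stage as at the first. Added over all members, it was 14734, 13581 and 14499 CPM (read counts relative to library size, scaled between libraries by the TMM method) in the 19W libraries, against 3446, 3512 and 3462 CPM in the 8W libraries, a ratio of 4.11 between the stage means. The ranges of both stages lay far apart. Over the 7 stages the sum averaged 3473 ± 34.6, 5329 ± 119, 4098 ± 527, 8476 ± 512, 10523 ± 141, 13545 ± 587 and 14271 ± 609 CPM (SD, n = 3 at each stage), so that 11W stood below 9W and each later stage had a higher mean than the one before. The libraries of 17W and 19W overlapped, with sums of 13130.5 to 14217 CPM and 13581 to 14734 CPM. As a share of all counted reads, without scaling, NAC members took 1.199% to 1.296% at 19W, against 0.380% to 0.393% at 8W. The mean share was 1.291% at 17W and 1.26% at 19W, so the order of these stages depended on the scaling. A higher share of reads in whole pellicles can come from more cells of a type or from more RNA per cell, and these cannot be told apart here.

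**Figure D1:**
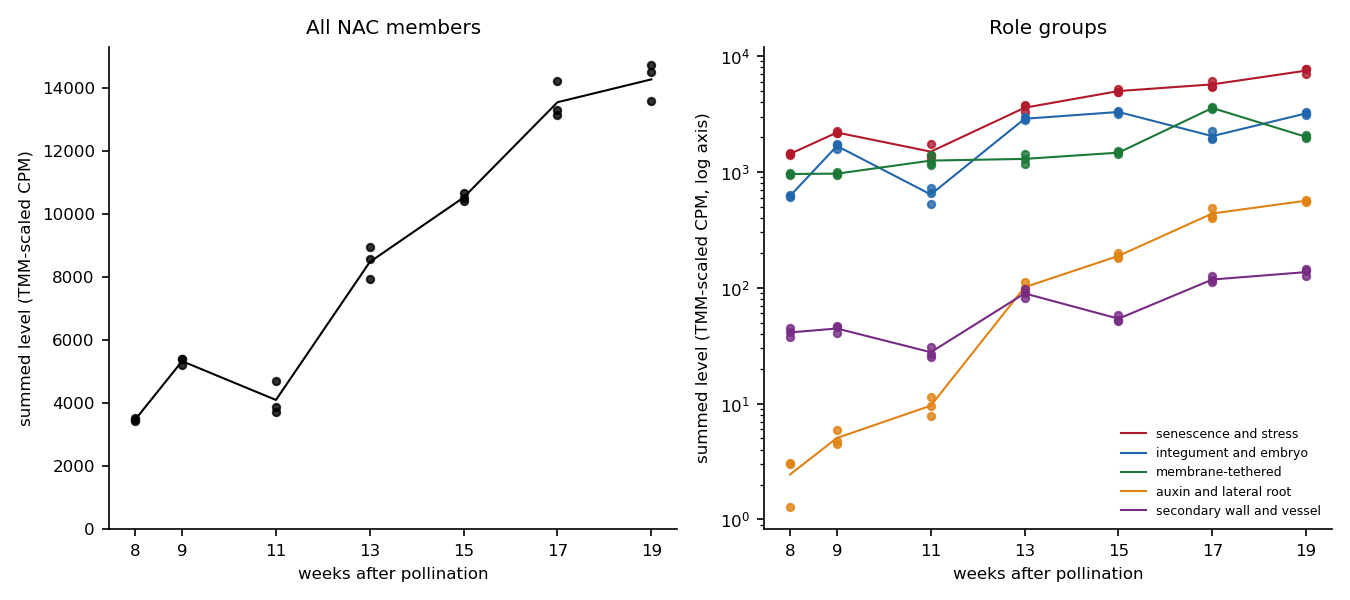
Summed TMM-scaled CPM of all 112 NAC members (left, linear axis from 0) and of 5 role groups (right, log axis) against weeks after pollination. Points are the 3 libraries of a stage and lines join stage means. The sum of all members reaches 14271 CPM at 19W, against 3473 CPM at 8W, and the membrane-tethered group is highest at 17W.

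Kernel transcripts moved as well over these weeks, and they are given here because the pellicle adheres to the kernel. Of 18 tested embryo and kernel markers out of 22 listed (storage globulins, oleosins, and the regulators ABI3, FUS3 and LEC2), 15 were higher and 1 lower at 19W than at 8W, and their summed level was 17996 to 22710 CPM at 19W, against 198 to 358 CPM at 8W. Over all tested genes, 39.0% were higher and 38.8% lower at 19W than at 8W. The seed coat regulator AGL11 (Jr2DG00016900) was present at both stages, with 936 ± 62.7 CPM at 19W, against 458 ± 13.3 CPM at 8W (SD, n = 3). Of the 14 seed coat markers 9 were tested, of which 2 were higher and 5 lower at 19W than at 8W, with a median log2 change of -0.59, and 3 had 0 reads, the seed coat regulator YABBY4 among them. The markers summed to 1108 to 1283 CPM at 19W, against 651 to 676 CPM at 8W, and AGL11 made up most of the 19W sum. The morning clock genes, a sign of sampling hour, summed to 1009 to 1069 CPM at 19W, against 207 to 217 CPM at 8W. The part of these shifts in the NAC rise was not tested.

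A small number of members carried a large share of the NAC reads. The 5 members of highest mean CPM at each stage gave 55.4%, 57.3%, 36.9%, 58.9%, 62.4%, 43.9% and 48.2% of the NAC total from 8W to 19W. These are shares of reads, not corrected for gene length. At 19W 24 members stood at 100 CPM or more, against 10 at 8W. At the other end, 6 members had 0 reads in all libraries and 22 had 1 to 100 reads. The 27 members that did not pass the filter on low counts had at most 66 reads over the 21 libraries. They include all 4 members named after NAC12 (SND1) and NAC43 (NST1), the master switches of fibre walls, all 3 members of NAC104 (XND1), a repressor of vessel formation, and both members named FEZ (Jr2DG00024300 with 34 reads and Jr2SG00016400 with 19), a root stem cell regulator.

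Levels can be compared between genes only per length, for which the deposited FPKM values (fragments per kilobase of gene length, scaled to depth) were used. At 19W the first 5 members by mean FPKM were NAC81 (ATAF2, Jr2DG00107300) at 1326 ± 85.7, NAC2 (ATAF1, Jr8DG00031000) at 982 ± 47.7, NAC72 (RD26, Jr6DG00175800) at 890 ± 60.1, NAC56 (Jr6DG00175900) at 772 ± 15.7 and NAC83 (VNI2, Jr3DG00093600) at 771 ± 65.3 FPKM (SD, n = 3). The libraries of NAC81 did not overlap those of NAC2, whereas NAC2 and NAC72 overlapped, and NAC83 overlapped both NAC72 and NAC56. At 8W the order was another one, with NAC2 (593 ± 20.5 FPKM) and NAC83 (506 ± 21 FPKM) ahead of the pair of NAC56 genes, and NAC81 and NAC72 not among the first 8.

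Nearly all tested members changed with age. In edgeR's quasi-likelihood F-test over the 7 stages, 82 of 85 tested members differed, against a background of 97.7% of all tested genes. A range of at least 2-fold between the highest and the lowest stage was found in 79 members (background 75.7%), and at least 4-fold in 65 (background 40.1%). Of the 79 members, 28 (35.4%) were highest at 17W and 20 (25.3%) at 19W, against 18.4% and 13.1% of all genes with such a range. The first stages held few peaks, with 10 members (12.7%) highest at 8W and 4 (5.06%) at 9W, against 22.4% and 16.0% of all genes. These shares are given as a description.

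**Figure D2:**
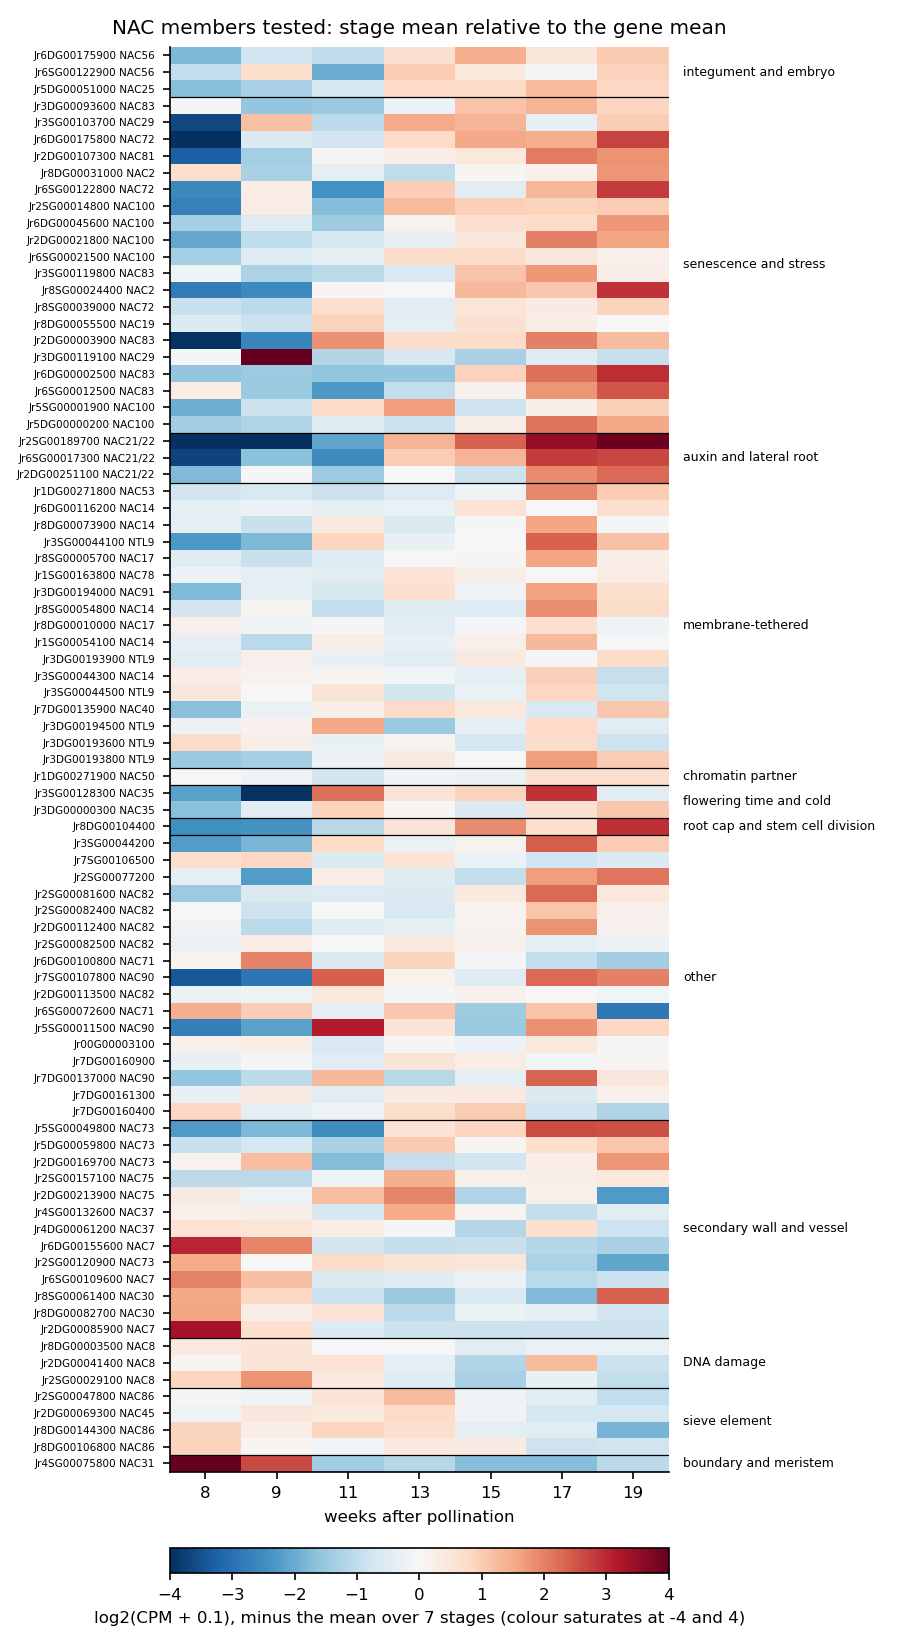
Stage means of the 85 tested NAC members by role group, as log2(CPM + 0.1) minus the gene's mean over the 7 stages, in columns of rising age. Red marks stages above the gene's own mean and blue those below. NTL9 stands for NTM1-like 9. Rows of the senescence and stress group run to red at 17W and 19W, many membrane-tethered rows are reddest at 17W, and the NAC7 and NAC31 rows are red at 8W.

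The last and the first stage were compared directly. At 19W, 52 of 85 tested members were higher and 23 lower than at 8W by edgeR's quasi-likelihood test with Benjamini-Hochberg adjustment, and 10 were not called. The background was 39.0% of all tested genes higher and 38.8% lower. At least a 2-fold difference was reached by 43 of the higher and 18 of the lower members. The background above holds calls of any size, and no 2-fold share over all tested genes is given here. The median log2 change, 19W over 8W, was 1.01 over the members and -0.01 over all tested genes.

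**Figure D3:**
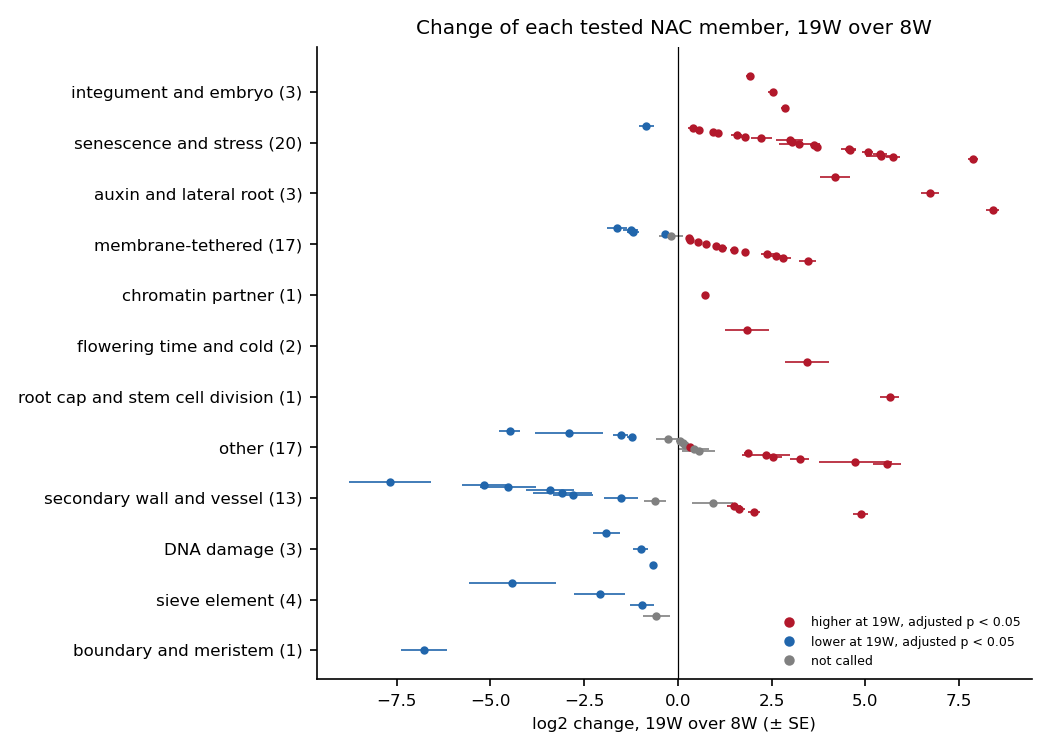
Log2 change of each of the 85 tested NAC members, 19W over 8W, with its standard error, by role group (number tested in brackets). Red points were called higher at 19W, blue points lower and grey points neither. The 3 auxin and lateral root members lie at 4.19 to 8.40, and most secondary wall and vessel members lie left of 0.

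All 3 tested members of the 6 placed in the integument and embryo group were higher at 19W than at 8W. NAC56 (NARS1), whose 6D copy was among the 5 members of highest mean CPM at every stage, acts in the integuments of Arabidopsis. Its copy on chromosome 6D (Jr6DG00175900, 34912572 to 34914829) had 1675, 1730 and 1720 CPM at 19W, against 236, 232 and 243 CPM at 8W, a log2 change of 2.85 ± 0.0967 (SE; adjusted p = 7.13e-18, edgeR). The copy on 6S (Jr6SG00122900, 23241714 to 23244168) had 1498, 1205 and 1356 CPM at 19W, against 373, 355 and 348 CPM at 8W (log2 change 1.92 ± 0.109). In both copies every 19W library stood above every 8W library. The copies followed different courses between these ends: over the 7 stages the 6D copy averaged 237, 477, 409, 1294, 2195, 1164 and 1708 CPM, with its top at 15W, and the 6S copy 359, 1166, 180, 1446, 961, 682 and 1353 CPM, with its top at 13W. Clock gene sums averaged 211, 973, 275, 1140, 719, 500 and 1034 CPM over the same stages, and their part in either course was not tested. The third tested member of the group, NAC25 (Jr5DG00051000), had 134, 145 and 136 CPM at 19W, against 23.9, 23.5 and 24.5 CPM at 8W. The summed level of the group was 3200 ± 114 CPM at 19W, against 620 ± 11.9 CPM at 8W (SD, n = 3). The kernel marker ABI3 (Jr2DG00137500) stood at 135 ± 12.1 CPM at 19W, against 6.23 ± 2.67 CPM at 8W, and its part in the rise of a group known from seed tissue was not tested.

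The largest set, 27 members named after regulators of senescence and stress, rose almost throughout. Of its 20 tested members 19 were higher and 1 was lower at 19W than at 8W (background 39.0% and 38.8%), with a median log2 change of 3.15. Of the higher ones, 16 reached at least 2-fold, for which no background is given. The summed level was 7482 ± 399 CPM at 19W, against 1430 ± 19.6 CPM at 8W (SD, n = 3), a ratio of 5.23. The highest stage was 19W in 8 and 17W in 6 of the tested members.

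NAC72 (RD26), a mediator of abscisic acid and drought responses, changed by over 5 on the log2 scale in its 6D and 6S copies. The 6D copy (Jr6DG00175800, 34899497 to 34901196) had 1594, 1387 and 1500 CPM at 19W, against 6.68, 6.501 and 5.99 CPM at 8W, a log2 change of 7.87 ± 0.129 (adjusted p = 1.95e-23, edgeR). The 6S copy (Jr6SG00122800) had 757, 601 and 651 CPM at 19W, against 15.0, 16.8 and 15.9 CPM at 8W (5.40 ± 0.186). Both copies were highest at 19W and neither had overlapping libraries between the stages. NAC72 and NAC56 are direct neighbours on each of the chromosomes, with 11375 bases between them on 6D and 9607 bases on 6S, and no other listed gene between. The neighbours differed in course: on 6D, NAC56 averaged 1164 CPM at 17W and 2195 CPM at 15W (log2 change -0.92 ± 0.0907, adjusted p = 7e-09, edgeR), and NAC72 averaged 625 CPM at 17W and 662 CPM at 15W (log2 change -0.08 ± 0.0906, adjusted p = 0.436, edgeR).

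NAC29 (NAP), an activator of leaf senescence, went up early in its 3S copy. This copy (Jr3SG00103700) had 913, 766 and 889 CPM at 19W, against 32.7, 32.3 and 40.3 CPM at 8W, a log2 change of 4.61 ± 0.137. Most of that difference was already present at 9W, where the libraries held 1017, 955 and 965 CPM (4.80 ± 0.138 over 8W; adjusted p = 3.07e-17, edgeR). The stage means then moved up and down, being 979, 212, 1213, 1113, 350 and 856 CPM from 9W to 19W. The clock genes had low sums at 8W, 11W and 17W (211, 275 and 500 CPM) and higher ones at 9W, 13W, 15W and 19W (973, 1140, 719 and 1034 CPM). Their part in the course of NAC29 was not tested. The 3D copy (Jr3DG00119100) was the member of the group that fell, with 2.05, 2.11 and 2.62 CPM at 19W, against 4.62, 3.82 and 3.74 CPM at 8W, and stood out at 9W alone, with 116, 106 and 103 CPM.

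The ATAF genes, induced by wounding, drought and abscisic acid, rose as well. NAC81 (ATAF2, Jr2DG00107300) had 926, 945 and 1035 CPM at 19W, against 24.7, 30.3 and 31.7 CPM at 8W (log2 change 5.07 ± 0.154), and its highest mean, 1171 CPM, was at 17W. NAC2 (ATAF1) on 8D (Jr8DG00031000) had 973, 900 and 983 CPM at 19W, against 468, 441 and 458 CPM at 8W (1.06 ± 0.0939). Its path was not a steady one: the 9W libraries held 121, 119 and 107 CPM, a log2 change of -1.98 ± 0.0971, 9W over 8W. The 8S copy (Jr8SG00024400) had 140, 151 and 136 CPM at 19W, against 3.28, 2.49 and 2.19 CPM at 8W (5.74 ± 0.197), and the libraries of these stages did not overlap in either copy.

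NAC83 (VNI2), which in Arabidopsis represses vessel formation and links abscisic acid to leaf ageing, was already abundant at 8W. The 3D copy (Jr3DG00093600) had 1353, 1243 and 1466 CPM at 19W, against 676, 735 and 703 CPM at 8W (0.94 ± 0.0958), after low stage means of 256 and 267 CPM at 9W and 11W, and its top of 1924 CPM came at 17W. The 3S copy (Jr3SG00119800) differed little between the ends, with 43.7, 52.1 and 56.3 CPM at 19W, against 32.9, 41.7 and 39.7 CPM at 8W. Its log2 change of 0.41 ± 0.151 (adjusted p = 0.0179, edgeR) lost its call with library sizes alone (0.08), with upper-quartile factors (0.21), and without 8W replicate 1 (0.27), 19W replicate 2 (0.34) or 19W replicate 3 (0.29). Other NAC83 members rose more: Jr2DG00003900 had 22.8, 29.9 and 23.5 CPM at 19W, against 0.850, 0.574 and 0.345 CPM at 8W, and Jr6DG00002500 averaged 50.7 CPM at 19W and 2.16 CPM at 8W. All 6 tested members of NAC100, an Arabidopsis target of the microRNA miR164, were among the 19 that rose, with log2 changes between 1.57 and 3.72.

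The 3 members named NAC21/22 (NAC1), which passes on auxin signals in Arabidopsis lateral roots, gave the largest median log2 change of the role groups, 6.73 at 19W against 8W. Jr2SG00189700 (chromosome 2S, 35829164 to 35832374) had 515, 506 and 526 CPM at 19W, against 0.789, 1.85 and 1.90 CPM at 8W, a log2 change of 8.40 ± 0.178 (adjusted p = 1.34e-19, edgeR), the largest among the 85 tested members. Its stage means were 1.51, 1.17, 7.91, 87.2, 172, 388 and 516 CPM from 8W to 19W, so that the level went up at each step after 9W. Jr6SG00017300 had 40.4, 34.1 and 38.0 CPM at 19W, against 0.304, 0.574 and 0.173 CPM at 8W (6.73 ± 0.246). Jr2DG00251100 had 9.01, 11.4 and 12 CPM at 19W, against 0.182, 0.637 and 0.921 CPM at 8W (4.19 ± 0.405). None of the 3 had overlapping libraries between these stages. Of the 85 tested members, 52 lay higher and 23 lower at 19W without overlap. No such share over all tested genes is given here, of which 39.0% were called higher and 38.8% lower by the test. The summed level of the group was 564 ± 12.2 CPM at 19W, against 2.44 ± 1.01 CPM at 8W (SD, n = 3).

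In the membrane-tethered group the highest stage was 17W in 11 of its 17 tested members. Between 15W and 17W, 13 of the 17 were higher and 4 lower at 17W, and between 17W and 19W, 4 were higher and 13 lower at 19W. Over all tested genes, 29.3% were higher and 30.8% lower at the first of these steps, and 28.5% and 26.1% at the second, and both comparisons use the 17W libraries. The summed level was 1466 ± 46.9 CPM at 15W, 3560 ± 98 CPM at 17W, against 2004 ± 69.6 CPM at 19W (SD, n = 3). Against 8W, 12 members were higher and 4 lower at 19W, with a median log2 change of 0.74. The green tissue markers summed to 370 ± 4.85 CPM at 17W, against 964 ± 25.3 CPM at 15W, and the kernel markers to 4641 ± 1235 CPM at 17W, against 10416 ± 1837 CPM at 15W. Seed coat markers summed to 508 ± 17.6 CPM at 17W, against 1039 ± 7.46 CPM at 15W. The clock genes summed to 500 ± 15.0 CPM at 17W, against 719 ± 25.4 CPM at 15W. At 19W the green tissue, kernel, seed coat and clock sums averaged 716, 21013, 1179 and 1034 CPM. The part of these marker and clock shifts in the 17W maximum was not tested.

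NAC53 and NAC78 raise proteasome gene expression under proteotoxic stress in Arabidopsis. NAC53 (Jr1DG00271800) had 617, 683 and 640 CPM at 17W, against 148, 155 and 144 CPM at 15W (log2 change 2.12 ± 0.0829), and NAC78 (Jr1SG00163800) had 163, 176 and 174 CPM at 17W, against 204, 204 and 214 CPM at 15W (-0.28 ± 0.0545). The related pair thus moved in opposite directions at this step. NAC17, held at the endoplasmic reticulum and known for signalling from mitochondria, had in its 8S copy (Jr8SG00005700) 473, 467 and 505 CPM at 17W, against 154, 184 and 167 CPM at 15W (1.51 ± 0.0853). NAC14 on 8D (Jr8DG00073900) had 537, 506 and 519 CPM at 17W, against 165, 171 and 168 CPM at 15W, and was back at 163, 167 and 176 CPM at 19W. Its difference from 8W (134, 145 and 131 CPM) was small, 0.31 ± 0.0942 on the log2 scale, and its sign turned with library sizes alone. A further NAC14 member on 6D (Jr6DG00116200) ran the other way, with 214, 217 and 222 CPM at 17W, against 328, 324 and 312 CPM at 15W.

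Neighbouring members on chromosome 3S were also highest at 17W. The NTM1-like 9 gene Jr3SG00044100 (5923228 to 5925113) had 594, 605 and 626 CPM at 17W, against 107, 123 and 123 CPM at 15W (2.37 ± 0.213). Its neighbour Jr3SG00044200 (5925299 to 5927081), a NAC gene without a Swiss-Prot match, had 995, 978 and 1030 CPM at 17W, against 178, 223 and 223 CPM at 15W (2.27 ± 0.233). Both lie on the plus strand with 185 bases between them, and whether reads of 1 transcript were divided over the pair was not tested. Farther along, Jr3SG00044300 (NAC14) and Jr3SG00044500 (NTM1-like 9) averaged 28.8 and 20.2 CPM at 17W but were lower at the last stage than at the first, with 7.79 and 6.41 CPM at 19W, against 17.9 and 15.4 CPM at 8W.

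Members named after secondary wall and vessel regulators split. Of 13 tested, 4 were higher and 7 lower at 19W than at 8W, with a median log2 change of -1.52. NAC73 (SND2), which acts on cellulose genes of fibre walls in Arabidopsis, rose in 3 of its members. Jr5SG00049800 had 72.7, 68.7 and 66.5 CPM at 19W, against 3.46, 2.55 and 1.09 CPM at 8W (4.88 ± 0.193; adjusted p = 6.77e-16, edgeR), and Jr5DG00059800 had 25.1, 28.9 and 23.4 CPM at 19W, against 7.83, 6.44 and 4.72 CPM at 8W (2.03 ± 0.164). The NAC7 (VND4) members, named after a switch of vessel differentiation, fell to near 0. Jr6DG00155600 had 0.0819, 0 and 0.231 CPM at 19W, against 3.89, 3.95 and 4.43 CPM at 8W (-5.17 ± 0.581), and Jr2DG00085900 had 0 reads at 19W and 1.71 CPM at 8W, at least 7.22-fold lower against a floor of 3 reads per library. These NAC7 genes were singled out after their values were seen. As the abundant members are those that rose, the summed level of the group was higher at 19W (136 ± 8.61 CPM) than at 8W (41.1 ± 3.76 CPM; SD, n = 3) although its median change was negative.

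The wall genes that such switches are known to act on mostly fell. Of 33 tested genes among 53 listed, 3 were higher and 27 lower at 19W than at 8W (background 39.0% and 38.8%). Their median log2 change was -4.08. Their summed level was 180 ± 6.12 CPM at 19W, against 320 ± 10.3 CPM at 8W (SD, n = 3). All 4 tested genes for cellulose synthase subunits 4, 7 and 8 of secondary walls fell, among them subunit 7 (Jr8SG00104000), which stood at 0.186 ± 0.169 CPM at 19W, against 19.0 ± 1.26 CPM at 8W (-6.62 ± 0.437). The called genes of highest mean CPM were xylosyltransferases, and both rose. IRX9H (Jr8DG00144500) stood at 68.3 ± 6.47 CPM at 19W, against 13.1 ± 1.37 CPM at 8W, and IRX14 (Jr1DG00014000) at 26.8 ± 3.04 CPM at 19W, against 17.1 ± 0.981 CPM at 8W. The cellulose synthase genes were picked after their values were seen.

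**Figure D4:**
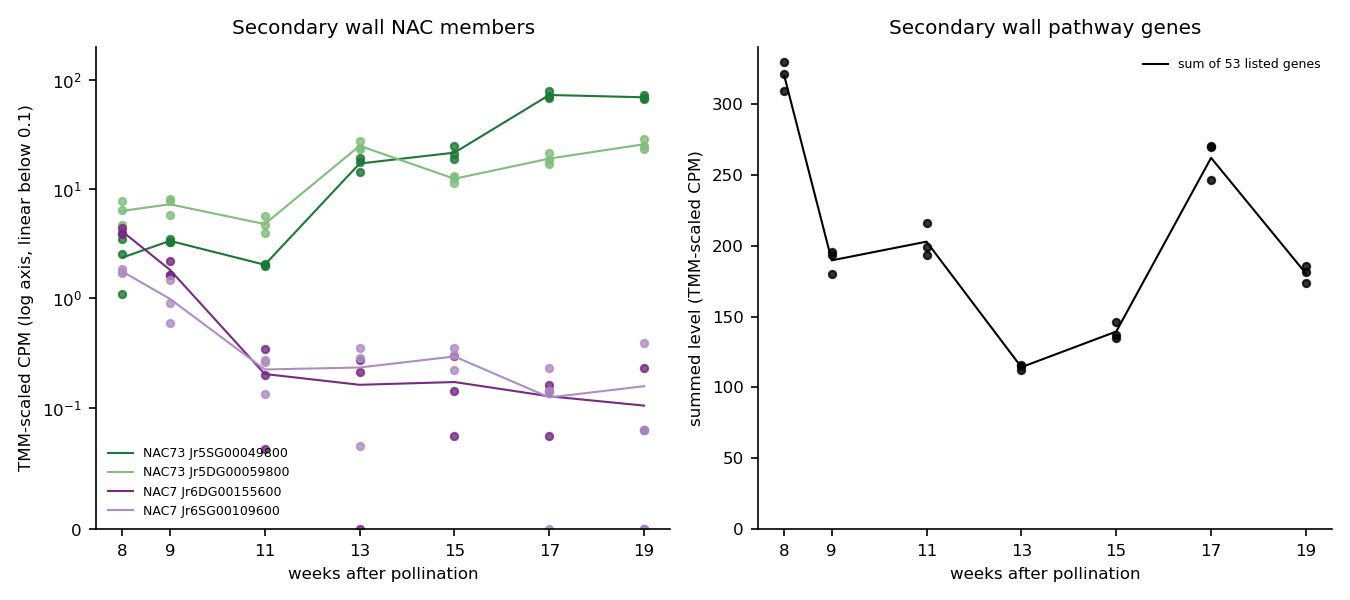
Left, TMM-scaled CPM of 2 NAC73 and 2 NAC7 members in each library against weeks after pollination (log axis, linear below 0.1), with lines through the stage means. Right, summed CPM of the 53 listed secondary wall genes (linear axis from 0). The NAC73 members reach 69.3 and 25.8 CPM at 19W, whereas the NAC7 members lie at 0.104 and 0.157 CPM at 19W, and the wall gene sum is highest at 8W.

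Several small groups of low level fell. NAC31 (CUC3), which sets organ boundaries, had 0, 0.156 and 0 CPM at 19W, against 5.04, 6.76 and 8.23 CPM at 8W in its member Jr4SG00075800 (chromosome 4S, 7838633 to 7840383). With 2 reads over the 19W libraries and 332 over the 8W libraries the ratio was 127-fold, with a 95% counting interval of 35.1 to 1046. The fitted log2 change of -6.78 became -9.66 without 19W replicate 2, the library that held these reads. The transcript had already dropped to a 9W mean of 1.94 CPM and an 11W mean of 0.0229 CPM. The other member placed in the boundary group, Jr2SG00123700, is there only by its match to wheat NAM-B1, whose name contains NAM. It had 0 reads in all libraries.

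All 3 members of NAC8 (SOG1), which governs the response to DNA damage, were lower at 19W than at 8W. Their courses between these ends were not steady falls. Jr2DG00041400 was highest at 17W, with 6.43 FPKM, against 3.37 FPKM at 8W. Jr2SG00029100 was highest at 9W, with 5.76 FPKM, against 2.96 FPKM at 8W. Jr8DG00003500 had 19.99, 23.4 and 19.1 CPM at 19W, against 31.8, 34.2 and 32.7 CPM at 8W (-0.66 ± 0.0891), and Jr2DG00041400 changed by -0.99 ± 0.206. The largest of the 3 falls was in Jr2SG00029100, with 1.31, 1.17 and 1.62 CPM at 19W, against 4.07, 7.14 and 4.32 CPM at 8W (-1.91 ± 0.354). Of 4 members of NAC45 and NAC86, which act in the clearing of sieve element nuclei, 3 were lower at 19W and NAC45 (Jr2DG00069300) was not called. Of these, NAC86 (Jr2SG00047800) at -0.95 lost its call without 8W replicate 2 (-0.56).

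Members named after NAC71, which takes part in the rejoining of wounded stems, fell in both copies. Jr6SG00072600 had 1.15, 0.312 and 0.540 CPM at 19W, against 14.9, 14.9 and 15.0 CPM at 8W (-4.49 ± 0.275, and -5.10 without 19W replicate 1), and Jr6DG00100800 had 3.61, 6.78 and 5.56 CPM at 19W, against 15.7, 17.1 and 13.4 CPM at 8W (-1.53 ± 0.197). The 6S copy moved down and up between these ends. It averaged 16.1 FPKM at 8W, 4.10 FPKM at 11W, 10.9 FPKM at 13W and 1.79 FPKM at 15W. At 17W it was higher again, with a mean of 11.1 FPKM (15.9, 10.9 and 9.28 CPM), before the low level of 19W (0.568 FPKM). Further falls were those of Jr7SG00106500, a NAC gene without a Swiss-Prot match (-1.23 ± 0.118), and of an NTM1-like 9 member, Jr3DG00193600 (-1.63 ± 0.268).

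Among members of low level that rose, Jr8DG00104400, matched to rice NAC76 and called SOMBRERO in NR after the root cap regulator of Arabidopsis, had 20.3, 25 and 26.2 CPM at 19W, against 0.425, 0.510 and 0.461 CPM at 8W (5.65 ± 0.259). NAC90 (Jr7SG00107800), a negative regulator of leaf senescence, had 29.1, 27.3 and 28.9 CPM at 19W, against 0.729, 0.510 and 0.518 CPM at 8W (5.58 ± 0.362), and was highest at 11W with a mean of 36.9 CPM. NAC50 (Jr1DG00271900), a partner of the histone demethylase JMJ14, differed less, with 96.3, 95.5 and 93.6 CPM at 19W, against 54, 56.7 and 63.4 CPM at 8W. Both NAC35 (LOV1) members, named after a regulator of flowering time and cold response, were called higher at low levels. For Jr3SG00128300 the call (1.84 ± 0.581) was lost without 19W replicate 2 (1.31), and for Jr3DG00000300 the change of 3.44 became 4.30 without 8W replicate 1.

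The steps between neighbouring stages differed in which way NAC members moved. The rises and falls called largest below are so among members of 5 CPM or more whose libraries did not overlap at that step. At 9W, 26 members were higher and 22 lower than at 8W (background 34.4% and 31.1%). At 11W, 32 were higher and 29 lower than at 9W (background 34.3% and 31.6%). Here NAC35 (Jr3SG00128300) had 18.4, 12.1 and 17.5 CPM at 11W, against 0.149, 0.109 and 0.114 CPM at 9W, and NAC90 (Jr5SG00011500) had 5.78, 12.1 and 11.5 CPM at 11W, against 0.0994, 0 and 0.341 CPM at 9W; the log2 change of the second, 6.02, became 7.35 without 9W replicate 3. The largest falls of this step were NAC29 on 3D (-5.86 ± 0.169) and NAC73 on 2D (Jr2DG00169700), with 1.86, 3.15 and 1.47 CPM at 11W, against 17.0, 18.1 and 17.8 CPM at 9W. At 9W the largest falls were those of NAC2 on 8D and of Jr2SG00077200, matched to rice NAC48, with 6.26, 5.92 and 6.09 CPM at 9W, against 21.4, 22.5 and 22.7 CPM at 8W.

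At 13W, 38 members were higher and 21 lower than at 11W (background 32.1% and 35%). The largest rises were the NAC21/22 genes, with 97.6, 76.8 and 87.1 CPM at 13W, against 7.50, 6.56 and 9.67 CPM at 11W for Jr2SG00189700 (3.46 ± 0.141), and 3.63 ± 0.229 on the log2 scale for Jr6SG00017300. The NTM1-like 9 gene Jr3DG00194500 fell by 3.10 on the log2 scale and NAC90 (Jr5SG00011500) by 2.72, or by 3.61 without 13W replicate 3. Kernel markers were uneven within these stages, with sums of 4758, 7097 and 14892 CPM in the 13W libraries, against 28279, 15244 and 13386 CPM in the 11W libraries, while the NAC sums were 8562, 7927 and 8939 CPM at 13W, against 3719, 3874 and 4699 CPM at 11W. The clock genes summed to 1127, 1138 and 1155 CPM in the 13W libraries, against 286, 269 and 269 CPM in the 11W libraries. The part of the kernel markers and of the clock genes in this step was not tested.

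At 15W the numbers were close, with 24 members higher and 22 lower than at 13W (background 24.8% and 26.3%). The NAC83 genes Jr6DG00002500 and Jr3SG00119800 gave the largest rises, 2.51 ± 0.209 and 1.74 ± 0.153 on the log2 scale. NAC75 (Jr2DG00213900), a vessel and fibre regulator, had 0.229, 2.20 and 0.891 CPM at 15W, against 11.7, 12.8 and 7.25 CPM at 13W (-3.23 ± 0.427, and -4.22 without 15W replicate 2). NAC71 on 6S fell by 2.55 at the same step.

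The step to 17W had the most members on the rising side, 47 higher and 15 lower than at 15W (background 29.3% and 30.8%), with a median log2 change of 0.76 over the members and -0.03 over all tested genes. The largest rises were NAC21/22 (Jr2DG00251100), with 7.16, 9.53 and 8.71 CPM at 17W, against 0.918, 1.28 and 1.26 CPM at 15W, and NAC90 (Jr7SG00107800), with 40.5, 32.1 and 29.1 CPM at 17W, against 3.82, 4.75 and 6.16 CPM at 15W. NAC29 on 3S fell, to 361, 379 and 311 CPM at 17W, against 1193, 1041 and 1106 CPM at 15W (-1.67 ± 0.119), and so did the SOMBRERO-named Jr8DG00104400 (-1.27 ± 0.197). The last step was turned the other way, with 21 members higher and 28 lower at 19W than at 17W (background 28.5% and 26.1%) and a median log2 change of -0.25 over the members and 0.02 over all tested genes. Jr8DG00104400 (2.33 ± 0.194) and NAC2 on 8S (1.82 ± 0.147) rose the most here, and NAC71 on 6S (-4.17 ± 0.281, or -4.79 without 19W replicate 1) and NAC35 (Jr3SG00128300; -3.35 ± 0.404) fell the most.

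The table numbers walnut chromosomes in pairs marked D and S, and many NAC members have a partner of the same Swiss-Prot entry on the matching chromosome. There are 29 such pairs, 22 of them with both copies tested. At 19W against 8W both copies were higher in 13 pairs and both lower in 3, the copies were called in opposite directions in 4, and 1 copy was not called in 2. The same stage was the highest in both copies of 9 of these 22 pairs. Differences between copies were not tested, and near-identical copies may share reads.

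The pairs with opposite calls were NAC17 on chromosome 8, NAC29 on chromosome 3, and NAC73 and NAC75 on chromosome 2. In FPKM, NAC29 averaged 1.98 in the D copy and 583 in the S copy at 19W, against 4.50 and 30.1 at 8W. NAC75 averaged 0.431 in the D copy and 8.32 in the S copy at 19W, against 3.86 and 3.699 at 8W, so that copies of like level at 8W were far apart at 19W. NAC73 averaged 18.8 in the D copy and 0.0610 in the S copy at 19W, against 7.65 and 1.98 at 8W. NAC17 differed less, with 36.5 in the D copy and 113 in the S copy at 19W, against 58.7 and 84.9 at 8W. Among pairs that rose together, NAC2 copies had 982 FPKM (D) and 229 FPKM (S) at 19W, against 593 and 5.39 FPKM at 8W.

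**Figure D5:**
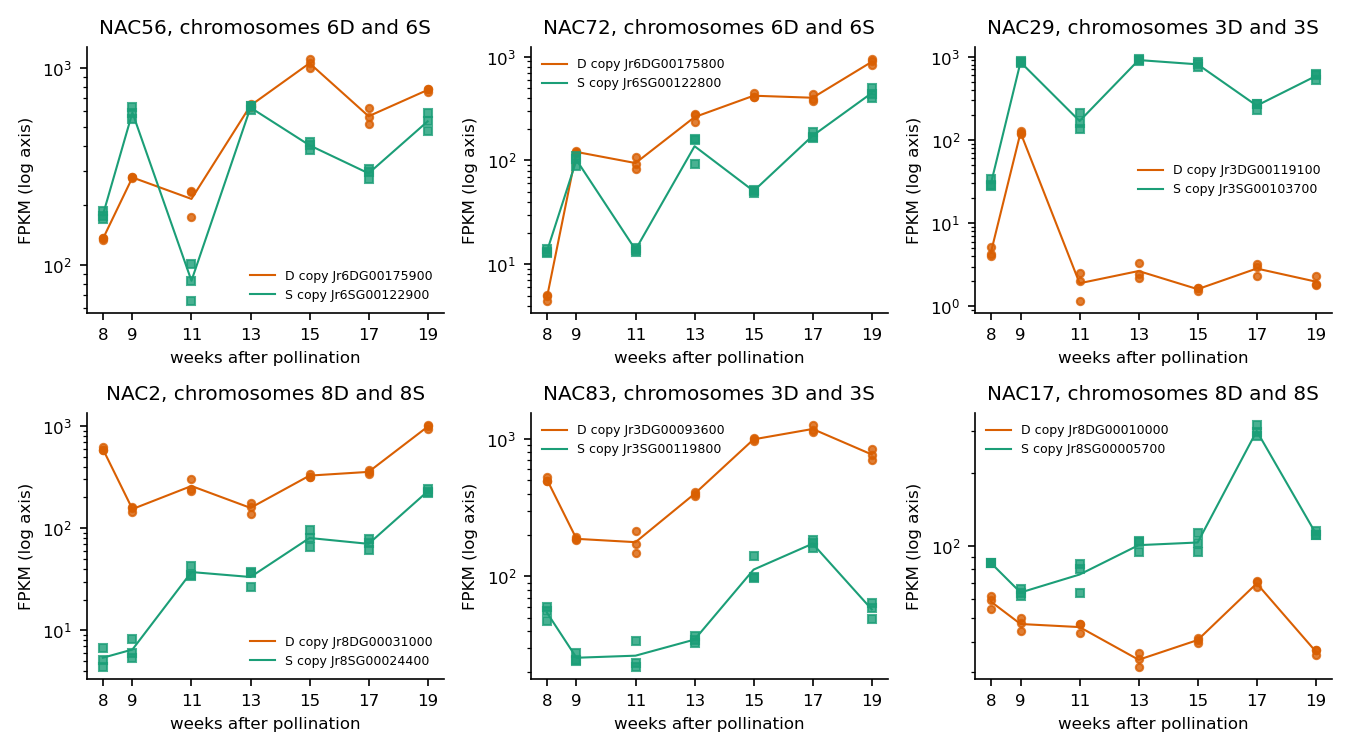
Deposited FPKM (log axes) of D and S chromosome copies for 6 NAC pairs against weeks after pollination, with the 3 libraries of a stage as points and lines through the stage means. The NAC29 copies are both high at 9W and lie far apart at 19W (1.98 and 583 FPKM for D and S), and both NAC72 copies are highest at 19W.

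Lists of senescence and abscisic acid genes, in which many NAC genes are known to act, moved both ways. Of 34 tested senescence genes among 40 listed, 19 were higher and 8 lower at 19W than at 8W (background 39.0% and 38.8%). Their median log2 change was 0.68. The called genes of highest mean CPM were vacuolar-processing enzymes, proteases that mature vacuolar proteins. Jr8SG00028300 stood at 720 ± 2.99 CPM at 19W, against 457 ± 8.89 CPM at 8W, and Jr1SG00130600 at 50.6 ± 6.87 CPM at 19W, against 144 ± 27.9 CPM at 8W. Endonuclease 1 (Jr5SG00128400), a nuclease of senescing leaves, stood at 463 ± 17.0 CPM at 19W, against 21 ± 2.63 CPM at 8W (4.46 ± 0.213), and was picked after its values were seen.

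Of 28 tested abscisic acid genes among 38 listed, 18 were higher and 8 lower at 19W than at 8W (background 39.0% and 38.8%). Their median log2 change was 0.53. The listed genes summed to 2349 ± 24.6 CPM at 19W, against 1424 ± 35.7 CPM at 8W (SD, n = 3). Abscisic acid 8'-hydroxylase 1 (Jr6DG00090000), which breaks the hormone down, stood at 890 ± 32.7 CPM at 19W, against 504 ± 27.8 CPM at 8W. Zeaxanthin epoxidase (Jr1DG00017000), an early enzyme of its synthesis, stood at 292 ± 8.16 CPM at 19W, against 85.8 ± 7.75 CPM at 8W. Both of these genes rose.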

How the data were processed

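Pellicle RNA (21 libraries in 7 stages) was sequenced in read pairs with a stranded mRNA kit, following oligo-dT purification and depletion of rRNA, per the labels' protocols, whose text counts 16 libraries. The submitters' processing notes list FastQC, HISAT2, Cufflinks and DESeq2 with no role attached. Neither the genome build and annotation nor the counter and its strand setting is given in the sources used here, and near-identical, overlapping or antisense genes may therefore share reads. The deposited table gives whole read counts per gene, which the authors left unscaled, and FPKM values that the authors made from these counts (dividing each count by gene length and column sum returns the FPKM, at most 5.11e-15 off in relative terms). FPKM served to compare levels between genes and, for some copies, to give stage means without TMM scaling. Positions are those of the table.

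The counts went into edgeR 4.0.16 (R 4.3.3). Low genes were removed by filterByExpr with stage as group and a minimum count of 10, TMM factors ran between 0.880 and 1.14, and 1 robust quasi-likelihood model took all libraries, with a coefficient for each stage and none for the replicate. Tests were 2-sided, with Benjamini-Hochberg adjustment across the 21707 tested genes and a threshold of 0.05. The biological coefficient of variation came to 0.102. A log2 change divided by the square root of its F gives the SE. Every adjusted p printed is from this fit unless another tool is named. Folds against a stage with 0 reads are bounds that set 3 reads in each library, and those against 1 to 3 reads carry exact Poisson intervals, both for counting error only. The code was tested on simulated data. Replicates differed beyond sampling noise (chi-square per degree of freedom 3.07 to 27.0) and none were merged.

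Members, role groups and gene lists were chosen with earlier results of these data known. NAC numbers come from Arabidopsis Swiss-Prot entries only. Numbers in rice and wheat entries (11 members) and in NR names, first meant to be used as well, follow other numberings and were left out, except that a gene named SOMBRERO in NR was placed with root cap genes. A gene matched to wheat NAM-B1 was placed with boundary genes by its name alone. The text names the 15 members of highest mean CPM, the 8 largest rises and falls at 19W against 8W and the 2 of each per step (called, at least 5 CPM, no overlap), and the 2 highest of each role group, plus genes marked as picked after their values were seen and members given to fill out a group or pair. Of listed genes that are no members it names the 2 called ones of highest mean CPM. The alternatives were other scalings (RLE, upper-quartile, library sizes alone), DESeq2 1.42.0 in place of edgeR, a filter of 1 CPM in 3 libraries or none, a block for replicate number, models of only the compared stages, and the removal of each library in turn. No sequence of a member was used here.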

Additional observations from a re-analysis of the deposited data

How the results depend on the processing

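All 15 counts of called members stayed within 1.5 times their value in each of the 224 alternatives. At 19W against 8W, 48 to 54 members were higher and 19 to 26 lower, and 78 to 86 differed over the stages. Leaving out each library gave 48 to 52 higher and 21 to 24 lower. With library sizes alone the median log2 change of all genes, 19W over 8W, was -0.34 (-0.22 with upper-quartile factors) and that of the members 0.68 (0.80), so the members stood above the shift. The share of called genes that were higher was then 36.5%, against 50.1% with TMM, and 64.9% against 69.3% for the members. Same-numbered libraries shared only a number (correlations of deviations -0.0838 to 0.0617 over 63 pairs), and a replicate block gave 52 higher, 23 lower and 81 over the stages. Of 71 results on named members, 66 kept direction and call in all alternatives. NAC14 (Jr8DG00073900), at 0.31, turned to -0.0301 with library sizes alone (adjusted p = 0.77, edgeR), was 0.10 with upper-quartile factors, 0.24 without 8W replicate 1 and 0.23 without 19W replicate 3, uncalled in each, and the cause was not tested. NAC45 (Jr2DG00069300), at -0.58, became called with library sizes alone (-0.91), without 8W replicate 3 (-0.85) and without 19W replicate 3 (-1.08). The peak stages at a 4-fold range were 17W in 23 and 19W in 16 of 65 members. Depth limits members under about 1 CPM, where single reads move a fold.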
